A study of Rattus norvegicus with 38 samples.

Results

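The left atrium of failing rat hearts was compared with that of healthy rat hearts. The comparison used the 8 libraries whose titles begin with LA, out of 38 libraries in the series, and the members were chosen by these titles and not by any measured value. The failing group held LA_0409, LA_0506, LA_0507 and LA_0508, and the healthy group held LA_0920, LA_0921, LA_1001 and LA_1002. All 8 came from male Sprague-Dawley rats aged 10 weeks. The protocol text describes surgery on pups at 1 week of age, in which the ascending aorta was narrowed, with left ventricular hypertrophy as its outcome. Healthy libraries carry the identical text, so that the sources used here do not give the treatment of the healthy rats. The other libraries of the series came from the right atrium (RA), the left ventricle and both parts, inferior and superior, of the sinoatrial node. The series addresses remodelling of the sinoatrial node in this model.

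The left atrium collects blood from the lungs and empties it into the left ventricle. A narrowed aorta loads the left ventricle, and a thick, stiff ventricle fills poorly, so that the left atrium behind it works against a raised pressure. Under such a load atrial tissue is known for stretch of its muscle cells, secretion of natriuretic peptides, growth of connective tissue and a tendency to arrhythmia.

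The samples were pieces of whole tissue, in which fewer cells of a type and less RNA per cell cannot be told apart. The deposited tables name genes by Ensembl ID, and 0 of the 24057 IDs matched the reference table used here, so that gene names, functions and cell type markers could not be assigned. The tissue label was therefore not checked against atrial markers. Genes are described below by their level, relative length and change, and 4 of them by ID. The 4-digit codes of failing libraries do not recur among healthy ones, and a batch that followed the codes cannot be told apart from failure. Whether each code stands for a separate animal is not stated in the labels, and the p-values measure the spread between these libraries, which may be technical.

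Totals ranged from 19407654 to 26501672 estimated counts in failing libraries and from 23803780 to 25503662 in healthy ones (exact two-sided permutation p = 0.314). The 10 genes most abundant on average over the 8 libraries took 25.2% ± 2.72 of the counts in failing and 23.1% ± 0.851 in healthy libraries (SD, n = 4 each, exact permutation p = 0.171). Genes at 1 TPM (a relative transcript level corrected for transcript length) or more numbered 12224.8 ± 244 in failing and 12270.8 ± 89.2 in healthy libraries (SD, n = 4 each, exact permutation p = 0.771). None of these differences passed with all 8 libraries, where the smallest possible two-sided p is 0.0286. Without LA_0506 both the totals and the share of the 10 genes passed (exact permutation p = 0.0286 for each), with failing minus healthy differences of -3204550 counts and 3.43 percentage points, against -1940720 counts and 2.14 points with it. That p is also the smallest possible there, and no other left-out library gave a pass for any of these values.

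Nearly as many genes were higher as lower in the failing left atrium. Of 14217 genes tested, 6853 passed with edgeR's quasi-likelihood test at an adjusted p under 0.05, which is 48.2% of them. Among these, 3461 (24.3%) were higher and 3392 (23.9%) were lower in failing libraries. The split depended on scaling: limma on log2(TPM + 1) without rescaling gave 1828 higher genes against 4688 lower ones and put the median gene at -0.14, and it gave 3237 and 3474 after the TPM values were rescaled by TMM (trimmed mean of M values). With the scaling of the main test the median log2 change of all genes was 0.01.

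Most changes were small. The log2 change is edgeR's fitted log2 ratio of the failing to the healthy level. It lies near the log2 ratio of group mean counts scaled to library size, so that a single high library can raise it. Its median was 0.82 over the higher genes and -0.68 over the lower genes. Of the genes that passed, 4650 (67.9%) changed by less than 2-fold. Changes of at least 2-fold were seen in 1340 higher genes (9.43% of those tested) and 863 lower genes (6.07%). At 4-fold or more the numbers were 350 higher and 173 lower, at 8-fold 121 and 47, and at 16-fold 47 and 15. Large changes were thus more often increases than decreases in these counts.

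The change was rarely a switch between presence and absence. Among the tested genes, 3 were at 0 in all healthy libraries and 1 was at 0 in all failing libraries. A level above 5 TPM in every failing library and below 0.5 TPM in every healthy one was found for 2 higher genes, and the opposite pattern for 0 lower genes. The groups did not overlap in log2 CPM (counts scaled to library size, here with a prior count of 2) for 6546 tested genes, or 46.0%. Among the genes that passed, 6068 (88.5%) had groups that did not overlap and 785 had groups that did.

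**Figure D1:**
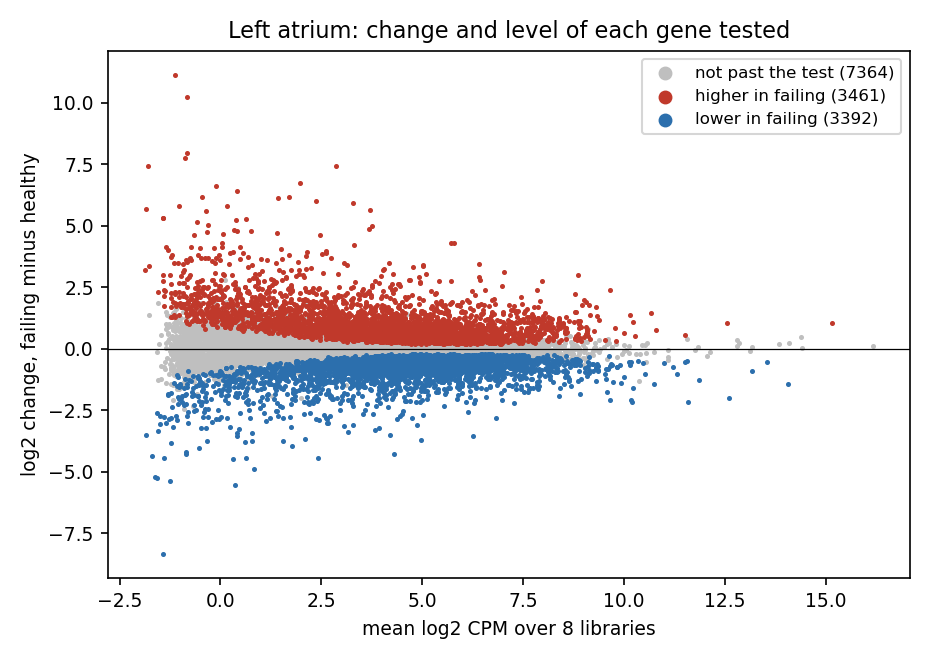
Each point is a gene, with its mean log2 CPM over the 8 left atrium libraries on the x axis and its log2 change, failing minus healthy, on the y axis. The 3461 higher genes are red, the 3392 lower genes blue and the rest grey, and the largest changes lie among genes of low level.

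Failing libraries lay apart from healthy ones and were also more spread among themselves. On the first principal component of log2 CPM, which held 66.6% of the variance, failing scores were 28.3 in LA_0409, 52.5 in LA_0506, 80.5 in LA_0507 and 36.4 in LA_0508. Healthy scores were -48.5 in LA_0920, -47.9 in LA_0921, -47.0 in LA_1001 and -54.3 in LA_1002. All failing scores were positive and all healthy scores negative, with LA_0507 the farthest failing library. The second component held 10.0% and ran from LA_0409 at 34.3 to LA_0507 at -33.9 among failing libraries, while healthy libraries lay between -10.3 and -0.21.

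Pearson correlations of log2 CPM across genes described the same layout. They were 0.951 to 0.978 between failing libraries, 0.983 to 0.987 between healthy libraries and 0.882 to 0.950 between the groups. The median gene had a standard deviation of 0.254 among failing and 0.150 among healthy libraries on the log2 CPM scale. The deviation was larger among failing libraries for 10571 genes (74.4%).

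**Figure D2:**
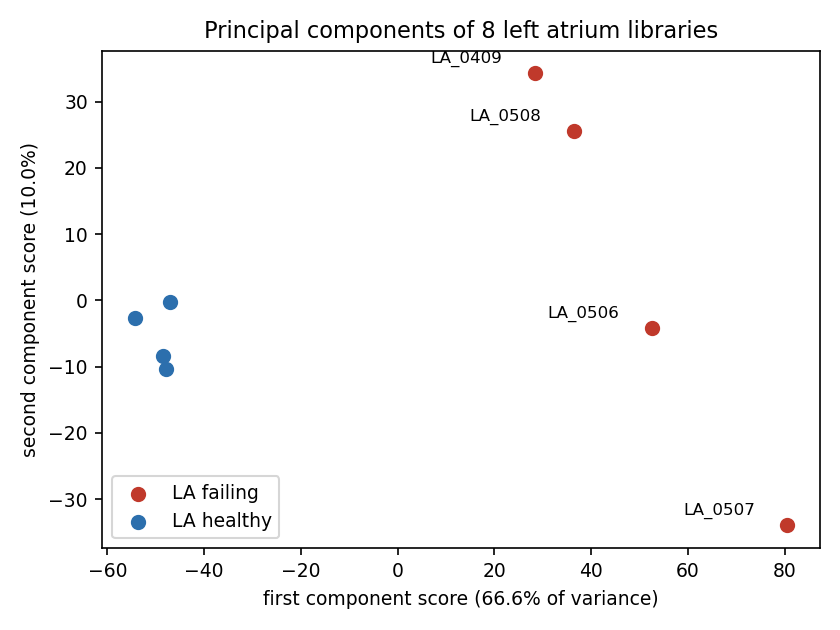
Scores of the 8 left atrium libraries on the first (66.6% of variance) and second (10.0%) principal components of log2 CPM, with failing libraries in red and healthy ones in blue. The healthy libraries form a tight group at -54.3 to -47.0 on the first component, and the failing ones stretch from 28.3 to 80.5.

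LA_0507 carried the largest changes for most genes. Among the 6853 genes that passed, it was the failing library farthest from the healthy mean, in the direction of the change, for 60.6%. The share was 15.6% for LA_0506, 12.8% for LA_0508 and 11.0% for LA_0409. Without LA_0507, 6335 genes passed, and they included 6037 (88.1%) of the 6853.

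The order of the failing libraries was also read from genes that passed in the right atrium and were also tested in the left. Left atrium libraries entered this choice only through the filter on level. Right atrium libraries carry the same codes, so that a batch or animal shared by code cannot be told apart from failure here either. Over 3413 genes higher in the failing right atrium, the median left atrium library value minus the healthy left atrium mean was 0.53 in LA_0409, 0.65 in LA_0506, 0.90 in LA_0507 and 0.54 in LA_0508 (log2 CPM). Over 3197 genes lower there, it was -0.52, -0.59, -0.79 and -0.49 in the same libraries. All 4 libraries moved in the direction of the right atrium, and LA_0507 moved farthest in both sets. Right atrium libraries, read over genes that passed in the left atrium, were ordered otherwise. Over the genes higher in the left atrium their medians were 0.58 in RA_0409, 0.43 in RA_0506, 0.65 in RA_0507 and 0.78 in RA_0508, so that RA_0508 was the highest there.

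Higher genes took up a larger share of TPM in failing than in healthy libraries. Because these genes were selected by the same contrast, the shares describe their weight and test nothing. The higher genes together held 32.4%, 38.9%, 39.6% and 37.0% of TPM in LA_0409, LA_0506, LA_0507 and LA_0508, and 20.6%, 21.8%, 22.4% and 21.1% in LA_0920, LA_0921, LA_1001 and LA_1002. The lower genes held 11.8%, 11.2%, 9.23% and 11.9% in the failing libraries, against 22.3%, 21.4%, 22.1% and 23.7% in the healthy ones, in the same order. The groups did not overlap in either share.

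Much of this shift came from few genes. The 10 higher genes with the largest gain in mean TPM held 43.9% of the gain summed over higher genes, and the first 100 held 74.7%. Among lower genes the 10 with the largest loss held 46.3% of the summed loss, and the first 100 held 70.1%.

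The share of genes that passed grew with level. Of 1930 genes with a mean under 1 TPM, 326 were higher and 244 lower (29.5% passed). From 1 to 10 TPM the numbers were 1351 higher and 1547 lower of 6069 genes (47.8%), and from 10 to 100 TPM 1445 and 1432 of 5400 (53.3%). Above this level increases outnumbered decreases. From 100 to 1000 TPM 305 of 735 genes were higher (41.5%) and 151 lower (20.5%), and at 1000 TPM or more 34 of 83 were higher and 18 lower. After a trend of each library on gene length was removed, this excess was no longer seen. The numbers were then 200 higher and 218 lower from 100 to 1000 TPM, and 27 and 28 at 1000 TPM or more. The same step changed the balance of the other classes. It gave 381 higher and 200 lower genes under 1 TPM. From 1 to 10 TPM it gave 1451 and 1233, and from 10 to 100 TPM 1243 and 1429. The median size of the change among genes that passed the main test was 1.44 (log2) below 1 TPM, 0.60 from 10 to 100 TPM and 1.09 at 1000 TPM or more. A change is harder to detect at low counts, and how far this set the shares and sizes was not tested.

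**Figure D3:**
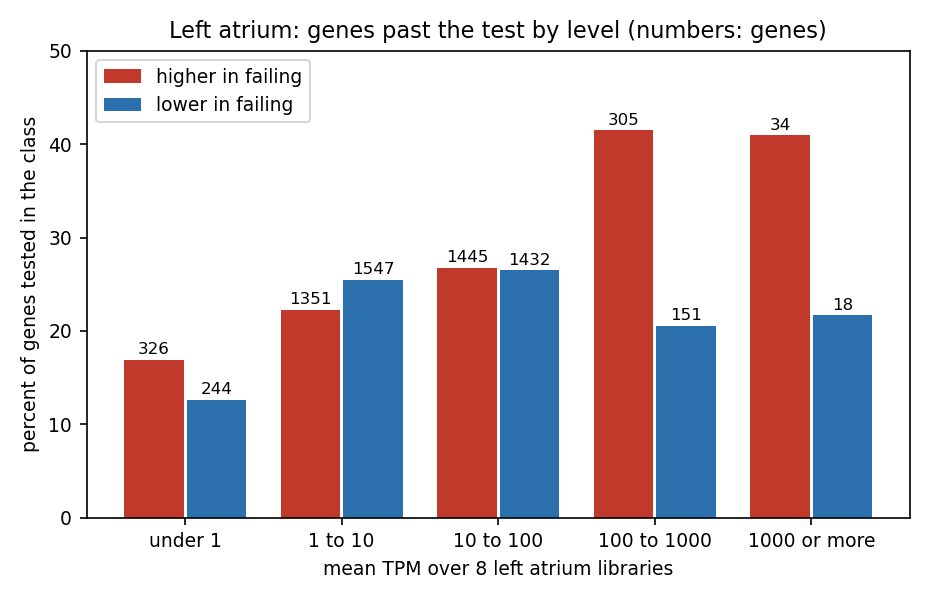
Percent of tested genes that were higher (red) or lower (blue) in failing left atria, in classes of mean TPM over the 8 libraries, with the number of genes above each bar. Higher and lower genes were similar in number from 10 to 100 TPM (1445 and 1432), and higher genes outnumbered lower ones from 100 to 1000 TPM (305 and 151).

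Short genes tended to be higher and long genes lower in the failing left atrium. The deposited estimated count of a gene divided by its TPM gave a relative length, and the tested genes were placed in 5 classes of equal size by it. The median gene was 0.383 times as long as the median of all genes in the shortest class and 2.26 times as long in the longest. In the shortest class 1119 genes were higher and 311 lower (39.3% and 10.9%), whereas in the longest class 376 were higher and 1166 lower (13.2% and 41.0%). In the classes between them the numbers were 838 and 440, 638 and 649, and 490 and 826, from short to long. The median log2 change over all tested genes fell step by step, with 0.30, 0.12, 0.02, -0.10 and -0.25 from the shortest to the longest class.

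Each failing library showed the gradient. The median log2 CPM of the shortest class minus the healthy mean was 0.29 in LA_0409, 0.22 in LA_0506, 0.37 in LA_0507 and 0.27 in LA_0508, while healthy libraries lay between -0.04 and 0.07. In the longest class failing libraries lay between -0.32 and -0.21 and healthy ones between -0.08 and 0.05. The groups did not overlap in either class. As a single value, the shortest minus the longest class was 0.55 ± 0.107 in failing and 0.00 ± 0.107 in healthy libraries (log2, SD, n = 4 each), with values from 0.43 to 0.69 and from -0.08 to 0.15. The exact two-sided permutation p was 0.0286, the smallest possible. The gradient was noticed in the data before it was tested, and the healthy mean lies near 0 by construction. That healthy baseline was not recomputed when labels were permuted, so that the p is not strictly exact.

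**Figure D4:**
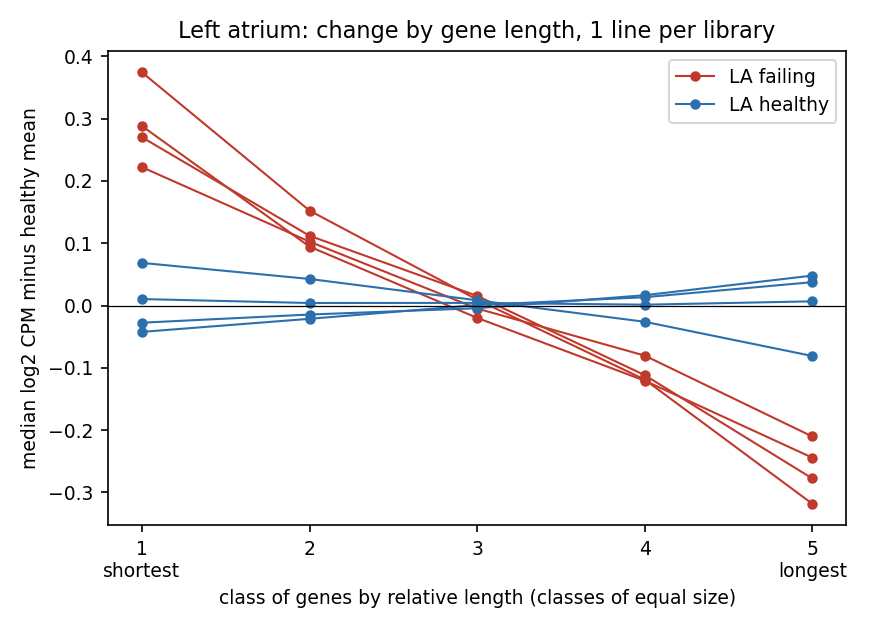
Median log2 CPM minus the healthy mean in 5 classes of relative gene length, from the shortest on the left to the longest on the right, with 1 line for each left atrium library. Failing libraries (red) run from between 0.22 and 0.37 down to between -0.32 and -0.21, and healthy libraries (blue) stay between -0.08 and 0.07.

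Most calls were kept with the length trend removed. With that trend taken out of every library, 6410 genes passed (3302 higher and 3108 lower), and they included 5437 (79.3%) of the 6853, of which 1 had the opposite direction. The shortest class then had 686 higher and 612 lower genes and the longest 663 and 653. This balance follows from the step itself, which removed the trend on the same relative length, and tests nothing.

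The 2 IDs with the largest increases and the 2 with the largest decreases were taken from genes that passed, averaged 1 or more in log2 CPM and had groups that did not overlap. Such genes numbered 2647 higher and 2876 lower, and genes of lower level with larger changes were left out by this rule. ENSRNOG00000006151 had 7.25, 46.0, 432 and 103 CPM in LA_0409, LA_0506, LA_0507 and LA_0508, and 0.986, 1.28, 0.340 and 0.704 CPM in LA_0920, LA_0921, LA_1001 and LA_1002. Every failing library was above every healthy one, but failing libraries differed widely among themselves, from LA_0409 as the lowest to LA_0507 as the highest. The means were 147 ± 194 CPM in failing and 0.827 ± 0.400 CPM in healthy libraries (SD, n = 4 each). The log2 change was 7.45 (SE 1.26, edgeR adjusted p = 0.00148). Leaving out LA_0507 gave 5.97.

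ENSRNOG00000054955 was high to a similar degree in all failing libraries. It had 41.7, 38.2, 28.2 and 42.9 CPM in LA_0409, LA_0506, LA_0507 and LA_0508, and 0.552, 0.271, 0.170 and 0.396 CPM in LA_0920, LA_0921, LA_1001 and LA_1002. The groups were far apart, and here LA_0507 was the lowest failing library. The means were 37.7 ± 6.67 CPM in failing and 0.347 ± 0.165 CPM in healthy libraries (SD, n = 4 each), and the log2 change was 6.74 (SE 0.27, edgeR adjusted p = 3.37e-06). Without LA_0507 this change was 6.87, above the 5.97 of ENSRNOG00000006151, so that the order of these IDs depended on that library.

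ENSRNOG00000006617 fell in failing left atria. It had 3.03, 0.836, 0.657 and 0.571 CPM in LA_0409, LA_0506, LA_0507 and LA_0508, and 23.1, 29.5, 20.1 and 35.0 CPM in LA_0920, LA_0921, LA_1001 and LA_1002. The groups did not overlap, and LA_0409 was the failing library nearest to the healthy ones. The means were 1.27 ± 1.18 CPM in failing and 26.9 ± 6.67 CPM in healthy libraries (SD, n = 4 each), and the log2 change was -4.43 (SE 0.47, edgeR adjusted p = 0.000197). Leaving out LA_0409 gave -5.25.

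ENSRNOG00000025868 also fell. It had 11.0, 4.77, 1.27 and 3.43 CPM in LA_0409, LA_0506, LA_0507 and LA_0508, and 88.2, 101.8, 79.3 and 124.8 CPM in LA_0920, LA_0921, LA_1001 and LA_1002. LA_0409 was again the highest failing library, and it stayed well below every healthy one. The means were 5.11 ± 4.17 CPM in failing and 98.5 ± 19.8 CPM in healthy libraries (SD, n = 4 each). The log2 change was -4.28 (SE 0.51, edgeR adjusted p = 0.000319). Leaving out LA_0409 gave -4.94.

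**Figure D5:**
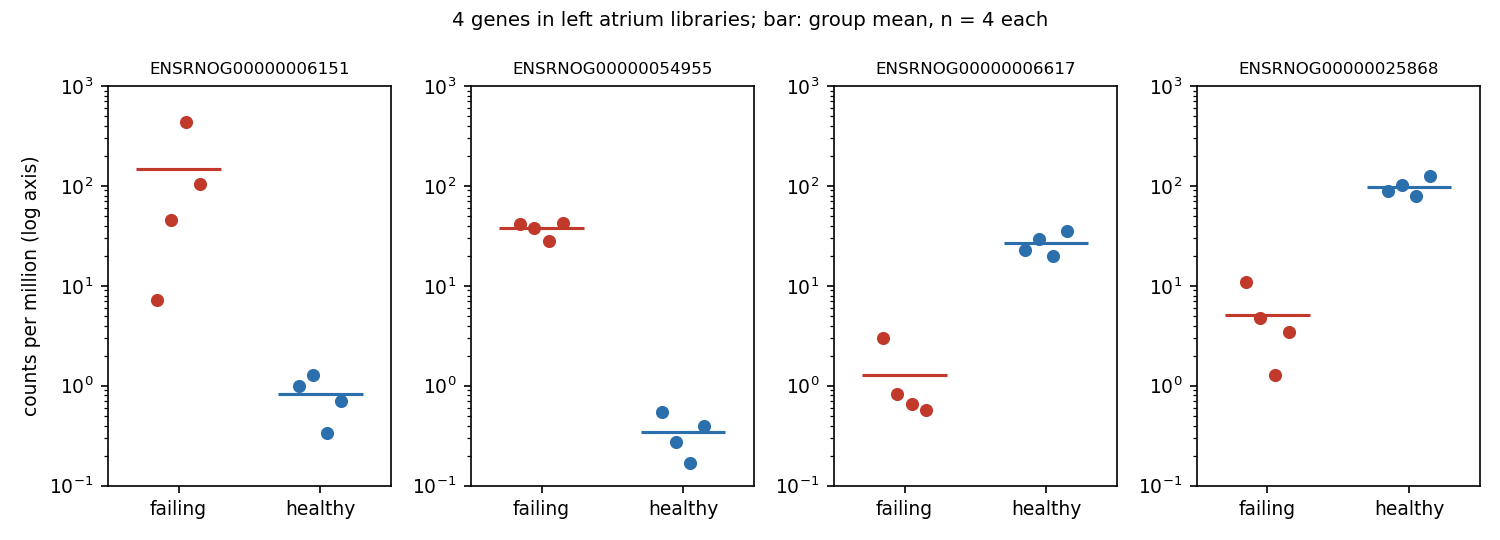
CPM of 4 genes in each left atrium library on a log axis, with failing libraries (red) left of healthy ones (blue) and a bar at the mean of each group (n = 4 each). ENSRNOG00000006151 spreads from 7.25 to 432 CPM among failing libraries, and ENSRNOG00000054955 from 28.2 to 42.9 CPM.

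The right atrium served to ask which changes differed between the atria. There, 6657 of 14011 genes passed for health state (47.5%). The difference between the atria in the change with health state, left minus right, was tested in 16 libraries. It passed for 25 of 14612 genes (0.171%), while 1344 had an unadjusted p under 0.05. The number that passed ran from 10 in a fit of all 38 libraries to 184 with DESeq2, and without LA_0409 it was 101. Which of the 25 passed also depended on the setting: with the code as a replicate block 24 genes passed, 11 of them among the 25. The main test took the 16 libraries as independent, although deviations of same-coded atrial libraries correlated at over 0.1 in 6 of 8 codes.

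The 25 genes are described here by their change in each atrium, without a further test because the difference itself selected them. The left minus right difference was positive for 8 genes. Of these, 2 were higher with failure in both atria, 2 were higher in the left and lower in the right, and 4 were higher in the left and did not pass in the right. It was negative for 17 genes. Of these, 5 were lower in the left and higher in the right, 6 were lower in the left and did not pass in the right, 5 did not pass in the left and were higher in the right, and 1 was higher in both. The size of the difference had a median of 2.01 (log2) and ran from 0.64 to 6.57.

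ENSRNOG00000054955 was the only one of the 4 IDs among these 25. It averaged 11.0 ± 2.17 TPM in failing and 0.116 ± 0.0552 TPM in healthy left atria, against 15.7 ± 6.69 TPM in failing and 2.79 ± 0.917 TPM in healthy right atria (SD, n = 4 each). The failing libraries of the left and right atrium overlapped in level, and every healthy left atrium library was below every healthy right atrium library. Healthy left atrium libraries held 3.97 to 13.9 estimated counts of this ID, so its log2 change there rests on few healthy counts. Its log2 change was 6.74 in the left and 2.78 in the right atrium (SE 0.36, edgeR adjusted p = 0.0005), a difference of 3.96 (SE 0.55, edgeR adjusted p = 0.00641). The difference did not pass with limma on log2(TPM + 1), at 1.33 (adjusted p = 0.163), nor after TMM rescaling of those values, at 1.21 (adjusted p = 0.26), nor in the fit of all 38 libraries, at 3.97 (adjusted p = 0.0629).

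The other 3 IDs passed in both atria with the same direction. For ENSRNOG00000006151 the log2 change in the right atrium was 7.42 (SE 1.21, edgeR adjusted p = 0.00124), and the left minus right difference was 0.02 (SE 1.46, edgeR adjusted p = 0.997). For ENSRNOG00000025868 it was -2.92 in the right atrium (SE 0.67, edgeR adjusted p = 0.00634), with a difference of -1.36 (SE 0.88, edgeR adjusted p = 0.703). Single libraries moved these differences. For ENSRNOG00000006151 it was -1.46 without LA_0507 and 1.64 without RA_0508, and for ENSRNOG00000025868 it was -2.03 without LA_0409 and -0.36 without RA_0506, none of which passed. These errors are large, and a difference that misses the threshold does not show equal changes. For ENSRNOG00000006617 it was -2.42 in the right atrium (SE 0.51, edgeR adjusted p = 0.00407), and the difference of -2.01 (SE 0.72, edgeR adjusted p = 0.362) did not pass. It passed without LA_0409, at -2.85 (adjusted p = 0.0441), and with limma on log2(TPM + 1), at -1.67 (adjusted p = 0.00295), or -1.64 (adjusted p = 0.00575) after TMM rescaling.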

How the data were processed

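Per the labels' protocols, RNA was extracted with an RNeasy Micro kit before TruSeq RNA library preparation. The submitters' processing notes name Trimmomatic 0.39 and kallisto 0.48.0. Neither genome build nor annotation is stated there. The authors' deposited gene tables hold estimated counts and TPM for 24057 Ensembl IDs, and the deposited estimated count over the TPM is a gene term times a library term, from which relative length was taken. Estimated counts were rounded, filtered with filterByExpr (count minimum 10, total minimum 15), scaled with TMM and tested with edgeR 4.0.16 in R 4.3.3 (robust quasi-likelihood test, Benjamini-Hochberg adjustment over all genes tested, threshold 0.05), on the 8 left atrium libraries, or on the 16 atrial libraries for the difference between atria. Each SE printed is the absolute log2 change divided by the square root of edgeR's F statistic, and was not estimated directly. Single values had exact permutation tests. Alternatives used DESeq2 1.42.0, its size factors, no filter, limma 3.58.1 on log2(TPM + 1) and log2(TPM + 0.1), all 38 libraries, 10 abundant genes removed, each library left out, and, chosen after seeing the data, a length trend removed (loess span 0.3). The steps were tested on simulated data with far fewer changed genes than passed here and with the same spread in both groups. Such data cannot show how the steps behave with changes and spreads like those seen here. Over 12 replicate pairs, the median squared difference (over genes averaging 100 counts or more) was 4.77 to 31.0 times that of plain counts with only counting error. The deposited estimated counts keep the above relation to TPM and may not be plain read counts, so this scale is approximate. No pair agreed within it, which does not show that the libraries came from separate animals.

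The members, lists and tests were chosen with earlier results of these data known. Gene names were needed for the function lists, for the marker lists and for the symbol condition on named genes, and these were not applied. The rule then kept 2 IDs in each direction: adjusted p under 0.05, mean log2 CPM (prior count 2) of at least 1, groups not overlapping, and the largest log2 change. The share of mitochondrially encoded genes was not computed for the same reason.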

Additional observations from a re-analysis of the deposited data

Results flagged for a closer look

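The change with health state differed between the left and right atrium for 25 of 14612 genes, as a tested left minus right difference in edgeR. For ENSRNOG00000054955 this difference was 3.96 on the log2 scale (SE 0.55, edgeR adjusted p = 0.00641), with higher levels in all 4 failing left atrium libraries than in healthy ones. The failing mean was 11.0 TPM in the left and 15.7 TPM in the right atrium, with overlapping libraries. Healthy left atrium libraries held 3.97 to 13.9 estimated counts of this ID. The difference did not pass with limma on log2(TPM + 1), with or without TMM rescaling, nor in the fit of all 38 libraries. LA_0409, at 3.031 CPM of ENSRNOG00000006617, lay far above the other failing left atrium libraries on the CPM scale, but not on the log2 CPM scale. It was the 1 library that stood apart by Dixon's criterion among 26 groups of 4 values checked, 16 of them the CPM and log2 CPM of the 4 IDs, and chance alone gives about 1 in 20.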

How the results depend on the processing

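Numbers of genes in the left atrium that moved by over 1.5 times were the higher genes with limma on unscaled TPM, at 1828 with a pseudocount of 1 and 1870 with 0.1 (lower genes 4688 and 4670). The other settings gave between 3237 and 3753 higher genes, and leaving out each library gave 2829 to 3617 higher and 2847 to 3472 lower genes. Leaving out each library gave failing minus healthy differences of -3204550 (without LA_0506) to -839875 (without LA_0508) in total counts and 1.31 to 3.43 percentage points in the share of the 10 most abundant genes. For genes at 1 TPM or more it gave -135.75 (without LA_0506) to 47.9 (without LA_0409), against -46 with all libraries. The 4 IDs kept their direction and stayed past the threshold in the left atrium under all 17 settings run for each. For the left minus right difference, 25 genes became 184 with DESeq2, 57 with limma on log2(TPM + 1), 57 after TMM rescaling, and 10 in the fit of all 38 libraries. Leaving out 1 library gave 13 to 101 genes: 101 without LA_0409, 50 without LA_0507, 42 without LA_0508, 15 without RA_1001 and 13 without RA_1002. The left minus right difference of ENSRNOG00000006151, 0.02, did not pass under any setting and changed sign in some: it was -0.60 with limma on log2(TPM + 1), -0.39 with log2(TPM + 0.1), -0.66 after TMM rescaling, -0.027 with the length trend removed, and -1.46 to 1.64 with 1 library left out. The cause of these shifts was not tested.

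With the code as a replicate block the difference between atria passed for 24 genes, of which 11 were among the 25, and the difference of ENSRNOG00000006151 was -0.33. The deviations of same-coded atrial libraries had correlations of -0.06 to 0.34, over 0.1 in 6 of 8 codes, and 6 of 8 libraries correlated best with their own code. A limit of 0.1 was not met by every code, so the codes were not taken to pair the atria. In the 6 codes over the limit the correlation was 0.22 to 0.34. Most same-coded libraries thus shared part of their deviations, which the main test did not model. That choice does not show that same-coded libraries came from separate animals. No paired analysis was possible within the left atrium because failing and healthy libraries share no code.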

Other observations

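The length gradient, shortest minus longest class, was also computed in the other regions against their own healthy means. The genes and length classes were those of the left atrium, and the healthy baseline again stayed fixed when labels were permuted. It averaged 0.60 ± 0.140 in failing right atria (SD, n = 4, exact permutation p = 0.0286, the smallest possible) and 0.42 ± 0.120 in the failing inferior node (exact permutation p = 0.0286). In the failing superior node it was 0.30 ± 0.137 (SD, n = 4, exact permutation p = 0.0571). In the failing left ventricle it was 0.56 ± 0.345 against 2 healthy libraries (exact permutation p = 0.133, with 0.0667 the smallest possible).

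ENSRNOG00000006151 averaged 1018 TPM in failing and 53.2 TPM in healthy inferior nodes, the highest healthy mean of the regions, against 285 TPM in failing and 1.90 TPM in healthy left atria (n = 4 each). ENSRNOG00000054955 averaged 0.161 TPM in failing and 0.127 TPM in healthy left ventricles (n = 4 and 2).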
